A study of Mus musculus with 4 samples.

Results

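Mouse fetal leg muscle contains a small set of myogenic cells that carry *Myod1* transcripts, hold few *Myog* transcripts and show little sign of mitosis. They were selected here from the raw counts of unique molecular identifiers (UMIs, each standing for 1 captured transcript) as cells with at least 2 *Myod1* UMIs, at most 2 *Myog* UMIs, at most 2 *Mki67* and *Top2a* UMIs together and 0 *Pdgfra* UMIs. This rule found 495 of 36969 kept cells, themselves taken from 41741 deposited cells, and the cells are called *Myod1*-high cells below. The study isolated the cells of leg muscles from E18.5 fetuses and sequenced their RNA cell by cell in droplets, in order to compare wild-type (WT) fetuses with littermates that lack *SYISL*, a muscle long non-coding RNA. Both genotypes came from heterozygous parents, per the study, so the mothers were not wild type, and no further allele or treatment was named. There were 2 libraries per genotype, labelled replicates 1 and 2. Of the *Myod1*-high cells, 134 came from WT replicate 1 and 99 from WT replicate 2, and 143 and 119 came from replicates 1 and 2 of the knockout (KO). Whether the replicates were separate fetuses or pools was not stated, so p-values measure only the spread between these libraries.

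MyoD, the product of *Myod1*, is a basic helix-loop-helix transcription factor that binds E-box sequences and can turn other cell types into muscle. Muscle progenitors carry Pax7 and are held undifferentiated by Notch signals. As they commit, they lose Pax7, make MyoD, switch on *Myog* (myogenin), leave the cell cycle, fuse into myotubes and build sarcomeres and neuromuscular junctions.

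A *SYISL* feature was not found by name in the gene table, so the deletion was not checked. *Synpo2*, the gene in whose locus *SYISL* lies, had 8 and 10 UMIs in the WT and 2 and 7 in the KO *Myod1*-high cells. KO replicate 2 stood apart from the other 3 libraries. In *Myod1*-high cells *Xist*, made from the inactive X chromosome, had 1255 UMIs there and 0 in each of the others, while the Y-linked *Ddx3y* had 1 UMI there against 110 to 124. The KO libraries thus differed from each other in sex-linked transcripts, and results are given without KO replicate 2 where that changes them. The barcodes of 171 cells occurred in more than 1 library, and 1 *Myod1*-high cell had such a barcode. Doublets were kept, and the Scrublet caller marked 3 of the *Myod1*-high cells.

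Selection by low UMI numbers set the edges of this population. Of the members, 295 had 2 *Myod1* UMIs, 108 had 3, 56 had 4, and the rest had 5 to 7. *Myog* was at 0 in 409 members, at 1 in 63 and at 2 in 23. Of 2234 kept cells with 2 or more *Myod1* UMIs, 1082 had more than 2 *Myog* UMIs and 935 more than 2 *Mki67* and *Top2a* UMIs, so the excluded cells outnumbered the members. *Myod1* reached 2 UMIs in 2.00% of cells in an endothelial gate, in 0.656% of a macrophage gate and in 0.330% of a glial gate. It did so in 0.501% of a *Pdgfra* gate and in 40.3% of 5227 gated myogenic cells. The last share is partly set by construction, because those cells include the members, and other myogenic gates, defined below, also use *Myod1*. Median depth was 11605, 10789, 10883.5, 11048.5 and 10581 UMIs in these 5 groups, so the other cell types were at least as deep as the myogenic cells. Just outside the rule, the 659 cells with 1 *Myod1* UMI had 200.1 CPM of *Actc1* (CPM, UMIs of the gene per 1000000 UMIs) and 5.00 CPM of *Dok7*. Just inside it, the 295 cells with 2 had 382 CPM of *Actc1* and 12.8 CPM of *Dok7*. The 24 cells with 3 *Myog* UMIs had 17.5 CPM of *Dok7* and 948 CPM of *Actc1*, against 44.7 and 1059 CPM in the 23 members with 2. These edge values describe the rule and were not tested.

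Comparisons were made with 2 other gates drawn from the same kept cells. *Pax7* progenitor cells (1672 cells) had at least 1 *Pax7* UMI, at most 1 *Myod1* UMI and 0 *Myog* UMIs. *Myog*-positive cells (1408 cells) had at least 3 *Myog* UMIs. Both had 0 *Pdgfra* UMIs and the same limit on *Mki67* and *Top2a* as the *Myod1*-high cells. A further gate, the cycling myogenic cells (1652 cells), had 3 or more *Mki67* and *Top2a* UMIs and is given for levels only. UMIs were summed per library and gate, tested with edgeR with the library as a block, and expressed as CPM of the gate's UMIs. Summed depth was 1100764 to 1290371 UMIs per library in *Myod1*-high cells. A gene level here is per cell gate and is compared between gates, never between genes. Because the same *Myod1*-high sums enter both comparisons, their results are not independent and are given side by side. Fewer expressing cells and less RNA per cell cannot be told apart in such sums.

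The genes supplied as markers with this population, *Myod1*, *Sox8*, *Dok7* and *Ccnd1*, were known from earlier results on these data, so their values are descriptions. *Myod1*, which the rule used, was at 277 and 254 CPM in the WT and 312 and 282 CPM in the KO libraries, and at 152 to 190 CPM in *Myog*-positive cells. *Sox8*, a SoxE transcription factor (chr17:25565892-25570686, minus strand, mm10), was at 21.7 and 24.1 CPM in the WT and 18.8 and 24.5 CPM in the KO libraries, against 5.41 to 12.4 CPM in *Pax7* progenitors and 47.0 to 65.8 CPM in *Myog*-positive cells. Its level lay between those of progenitors and *Myog*-positive cells with no overlap, 1.32 ± 0.23 (log2, SE) above the former and -1.50 ± 0.15 relative to the latter. In cycling myogenic cells, given for levels only, *Sox8* was at 19.3 to 28.3 CPM, which overlapped the *Myod1*-high range. *Dok7*, the cytoplasmic activator of the receptor kinase MuSK (chr5:35056766-35087839, plus strand), followed the same order from progenitors to *Myog*-positive cells. It had 10.1, 7.14, 10.6 and 18.2 CPM in WT replicates 1 and 2 and KO replicates 1 and 2, against 0.595 to 2.18 CPM in progenitors and 67.6 to 75.4 CPM in *Myog*-positive cells. In cycling myogenic cells *Dok7* was at 17.1 to 21.9 CPM, with a mean of 19.3 CPM against 11.5 CPM in *Myod1*-high cells. *Sox8* UMIs were found in 17.0% of the *Myod1*-high cells and *Dok7* UMIs in 8.89%, so most cells of the population showed neither. *Ccnd1*, the G1 cyclin D1, had 69.0 and 89.2 CPM in the WT and 84.3 and 112 CPM in the KO libraries, above the 19.1 to 40.7 CPM of *Myog*-positive cells in every library. Its range overlapped that of the progenitors (45.9 to 82.2 CPM), and its mean over all kept cells was higher, at 155 CPM. *Myod1* is high by the rule. Of the other 3 markers, *Sox8* and *Dok7* were higher still in *Myog*-positive cells and *Ccnd1* was higher over all kept cells, so none of them marks this population alone, and the order in time that the working name implies was not measured.

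**Figure D1:**
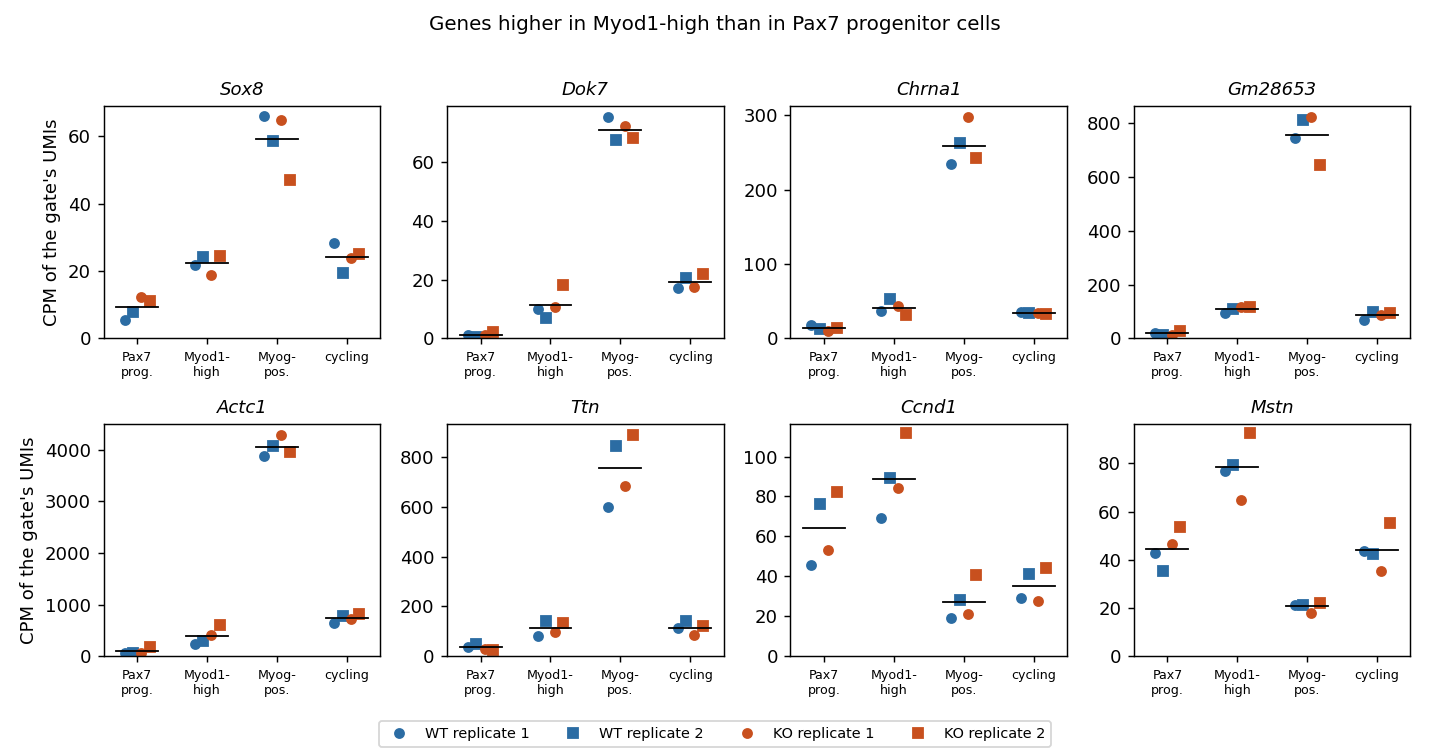
CPM of 8 genes in the 4 gates, 1 point per library (blue, WT; orange, KO; circles, replicate 1; squares, replicate 2), with a black line at the mean of the 4 libraries. *Sox8*, *Dok7*, *Chrna1*, *Gm28653*, *Actc1* and *Ttn* were lowest in *Pax7* progenitor, intermediate in *Myod1*-high and highest in *Myog*-positive cells, whereas the means of *Ccnd1* and *Mstn* were highest in *Myod1*-high cells. In cycling cells the means of *Sox8* and *Dok7* were above those of *Myod1*-high cells.

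Against *Pax7* progenitors, 1263 of 10437 genes tested (12.1%) were called at an adjusted p below 0.05, 643 higher and 620 lower in *Myod1*-high cells. Against *Myog*-positive cells, 4714 of 10246 (46%) were called, 2410 higher and 2304 lower. Without KO replicate 1 or KO replicate 2 the first count was 651 and 654. The lists below are read against these shares (6.16% higher and 5.94% lower in the first comparison, 23.5% and 22.5% in the second). The supplied markers *Sox8*, *Dok7* and *Ccnd1*, known from earlier results on these data, are included in the list counts. They are among the genes higher than in progenitors in the myogenic factor, neuromuscular junction and cell cycle exit lists.

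Among called genes whose mean reached 50 CPM in either gate, the largest increase over progenitors was that of *Gm28653*, a long intergenic non-coding RNA at chr1:20669882-20684298 (plus strand, mm10). Its level was 93.8 and 108 CPM in the WT and 115 and 117 CPM in the KO *Myod1*-high cells, against 13.2 to 28.4 CPM in progenitors and 643 to 822 CPM in *Myog*-positive cells. The 3 ranges did not overlap. The log2 fold change was 2.54 ± 0.15 against progenitors (adjusted p = 2.76e-10) and -2.89 ± 0.08 against *Myog*-positive cells (adjusted p = 3.42e-12), and 38.0% of the *Myod1*-high cells had a UMI. Within its bounds, on the same strand, RefSeq (GRCm38.p6) places the hairpins of the muscle microRNAs miR-206 (chr1:20679010-20679082) and miR-133b (chr1:20682769-20682887). The mature 3p strands are shown because this locus had the largest increase, with the seed (bases 2 to 8) in capitals. The seeds differ, so the 2 microRNAs belong to different seed families.
mmu-miR-206-3p: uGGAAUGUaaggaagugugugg
mmu-miR-133b-3p: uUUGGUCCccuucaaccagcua
Mature microRNAs are not captured by this assay, and only the transcript counted as *Gm28653* was measured.

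Among genes of the neuromuscular junction, *Chrna1*, the alpha subunit of the muscle acetylcholine receptor, had 37.2 and 53.5 CPM in the WT and 44.2 and 31.8 CPM in the KO *Myod1*-high cells, against 9.63 to 18.8 CPM in progenitors and 235 to 298 CPM in *Myog*-positive cells. Every *Myod1*-high library was above every progenitor library and below every *Myog*-positive library. The log2 fold changes were 1.62 ± 0.19 (adjusted p = 5.41e-06) and -2.74 ± 0.10 (adjusted p = 2.07e-11). Of the 16 junction genes tested against progenitors, 3 were higher (*Dok7*, *Chrna1* and *Chrng*, the fetal gamma subunit) and 2 lower (*Dtna* and *Utrn*, parts of the dystrophin-associated scaffold), and the list median was 0.10 against 0.01 for all genes. Against *Myog*-positive cells, 11 of 18 were lower and 2 higher, with a median of -0.77. *Musk* itself, the receptor that Dok-7 activates, was at 33.6 to 54.2 CPM in *Myod1*-high and 36.0 to 49.6 CPM in progenitor cells (log2 fold change 0.12 ± 0.12, adjusted p = 0.613). The ranges overlapped, so *Dok7* was higher beside a *Musk* level that did not pass the test.

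The E-box CAGCTG, which reads the same on both strands, is a known MyoD binding sequence and was searched from 250 bases before to 50 bases after the annotated start sites in RefSeq. It occurred in 16.3% of all 32851 such windows. The *Chrna1* window held 2 matches, at 92 and 44 bases before the start site, and they are shown with the match in capitals because *Chrna1* was higher than in progenitors.
*Chrna1* upstream match (chr2:73580413-73580442, minus strand): ctgtgggcagctCAGCTGtcatgcgggcac
*Chrna1* proximal match (chr2:73580365-73580394, minus strand): tagctgtggagtCAGCTGgcttccaaggcc
The windows of *Sox8*, *Dok7*, *Actc1*, *Ttn*, *Mstn* and *Rbm24* held no match to these letters. MyoD binding was not measured, and a match is a description of the sequence only.

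Among transcription factors, *Pax7* UMIs were found in 300 of the 495 *Myod1*-high cells, and its level was 99.0 to 140 CPM against 8.37 to 15.3 CPM in *Myog*-positive cells (log2 fold change 3.13 ± 0.14, adjusted p = 1.51e-10). *Myf5*, the early myogenic factor related to MyoD, had 119 and 91.9 CPM in the WT and 92.5 and 85.4 CPM in the KO *Myod1*-high cells, against 159 to 205 CPM in progenitors and 5.32 to 7.80 CPM in *Myog*-positive cells. All 3 ranges were separate, with log2 fold changes of -0.80 ± 0.09 (adjusted p = 4.89e-06) and 3.74 ± 0.14 (adjusted p = 3.41e-11). *Msc* (musculin), a repressor that competes with MyoD for E-boxes, gave -0.70 ± 0.07 and 2.80 ± 0.09, and *Id3*, an inhibitor of E-protein partners, was at 875 to 935 CPM against 178 to 245 CPM in *Myog*-positive cells. *Pitx3*, a homeobox factor of committing myoblasts, was the other way round. It was at 30.9 to 31.2 CPM in the 4 *Myod1*-high libraries against 14.2 to 16.2 CPM in progenitors and 17.0 to 26.0 CPM in *Myog*-positive cells. Of these 3 gates it was highest in *Myod1*-high cells (1.09 ± 0.16, adjusted p = 6.64e-05, and 0.57 ± 0.16, adjusted p = 0.0095). *Mef2c*, a partner of the myogenic factors, was at 16.1 to 25.6 CPM and within the progenitor range (11.3 to 33.3 CPM), but below the 131 to 223 CPM of *Myog*-positive cells (-3.03 ± 0.14). In all, 4 of 28 Pax and myogenic factor genes were higher than in progenitors and 9 lower (list median -0.02), and 15 of 27 were higher and 10 lower than in *Myog*-positive cells (list median 0.44, against 0.00 for all genes).

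Of 26 muscle stem cell genes tested, 11 were lower and 1 higher than in progenitors (median -0.29), whereas 17 were higher and 4 lower than in *Myog*-positive cells (median 0.67). *Nppc*, which encodes C-type natriuretic peptide, had 53.5 and 56.2 CPM in the WT and 59.7 and 52.7 CPM in the KO *Myod1*-high cells, against 195 to 327 CPM in progenitors, a fold change of -2.21 ± 0.09 on the log2 scale (adjusted p = 6.07e-13). *Calcr*, the calcitonin receptor that marks quiescent satellite cells, had 41.1, 25.9, 12.3 and 18.2 CPM against 45.6 to 71.8 CPM in progenitors and 0.821 to 2.03 CPM in *Myog*-positive cells (-1.18 ± 0.16 and 3.84 ± 0.33). Every *Myod1*-high library lay between these gates for *Calcr*. The Wnt receptor *Ror1* showed the same order, with 74.5 to 152 CPM against 214 to 333 and 6.84 to 17.7 CPM, as did the adhesion molecule *Vcam1*, with 110 to 140 CPM against 154 to 191 and 11.8 to 19.9 CPM. Outside the lists, the largest fall among called genes at 50 CPM or more was that of the non-coding *Gm43824*, which was at 6.25 to 15.6 CPM against 74.5 to 88.2 CPM in progenitors (-2.70 ± 0.17, adjusted p = 5.19e-10). Its difference from *Myog*-positive cells did not pass the test (0.18 ± 0.30, adjusted p = 0.672).

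**Figure D2:**
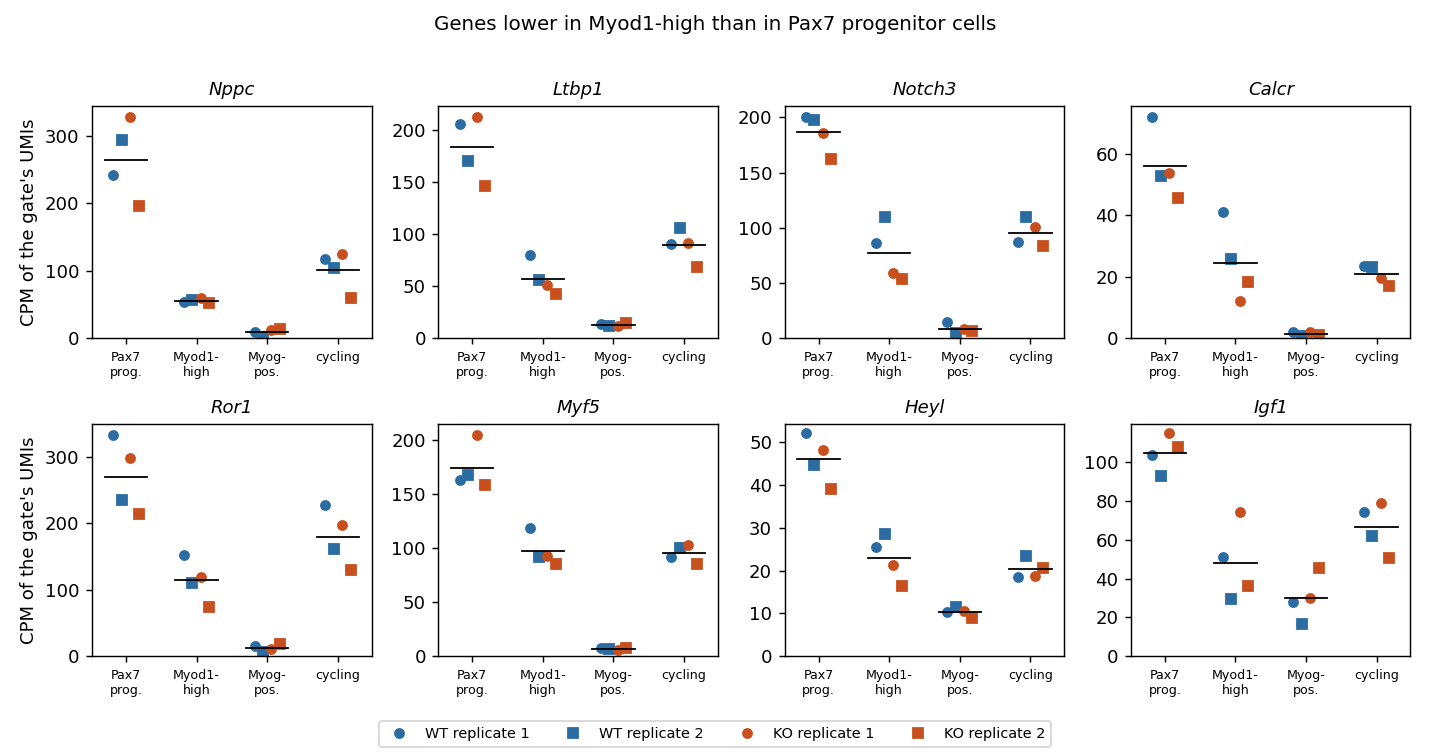
CPM of 8 genes in the 4 gates, with symbols as in the plot of *Sox8* and *Dok7*. All 8 were lower in *Myod1*-high than in *Pax7* progenitor cells, and all but *Igf1* had means below 20 CPM in *Myog*-positive cells.

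Members of the Notch pathway went different ways, also within a role. The receptor *Notch3* had 86.8 and 110 CPM in the WT and 58.9 and 53.6 CPM in the KO *Myod1*-high cells, against 163 to 200.3 CPM in progenitors and at most 14.7 CPM in *Myog*-positive cells. The ranges did not overlap, with log2 fold changes of -1.25 ± 0.10 (adjusted p = 2.42e-08) and 3.01 ± 0.22 (adjusted p = 3.23e-08). The receptor *Notch2* did not pass either test, at 70.4 to 109 CPM in *Myod1*-high cells (-0.07 ± 0.09, adjusted p = 0.692, and 0.01 ± 0.11, adjusted p = 0.944). Of the ligands, *Dll1* rose to 19.6 to 24.0 CPM from 8.93 to 12.5 CPM (1.05 ± 0.20, adjusted p = 0.00104) and was still below *Myog*-positive cells (-1.67 ± 0.15). The rise of *Dll1* was 0.74 with adjusted p = 0.0533 when members with any *Myog* UMI were left out. *Jag1*, another ligand, was instead lower than in progenitors, at 11.6 to 24.1 against 26.8 to 36.5 CPM. The Notch target genes *Heyl* (16.4 to 28.6 against 39.0 to 52.1 CPM) and *Hey1* (12.4 to 33.9 against 35.7 to 44.0 CPM) were lower in every library (-0.97 ± 0.15 and -0.78 ± 0.17). Of 23 Notch pathway genes tested, 2 were higher and 5 lower than in progenitors, and 8 were higher and 5 lower than in *Myog*-positive cells.

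Transcripts for DNA replication were higher in *Myod1*-high cells than in either gate tested against them. Cells with over 2 *Mki67* and *Top2a* UMIs had been removed from all 3 gates. In the cycling myogenic cells, given for levels only, the list summed to more, at 3506 to 3690 CPM against 2099 to 2923 CPM in *Myod1*-high cells. Of 28 replication genes tested, 15 were higher and 0 lower than in progenitors (median 0.34), and 27 were higher and 0 lower than in *Myog*-positive cells (median 1.70). *Ccne1* (cyclin E1), which drives entry into S phase, had 170 and 241 CPM in the WT and 224 and 301 CPM in the KO *Myod1*-high cells, against 127 to 183 CPM in progenitors and 60.0 to 77.1 CPM in *Myog*-positive cells. The progenitor range overlapped the *Myod1*-high range, but within each library the *Myod1*-high cells were higher (0.71 ± 0.08, adjusted p = 5.41e-06). Of *Uhrf1* and *Lig1*, which act at replication forks, *Uhrf1* gave 0.56 ± 0.11 and 1.78 ± 0.15 against the 2 gates, and *Lig1* gave 0.28 ± 0.09 (adjusted p = 0.0541) and 2.27 ± 0.13. *E2f2*, an E2F factor of the G1 to S transition, was at 38.0 to 68.7 CPM against 21.4 to 27.3 CPM in progenitors (1.25 ± 0.13, adjusted p = 1.65e-06). Of the mitotic genes, 3 of 24 were higher than in progenitors (median 0.26) and 11 of 21 higher than in *Myog*-positive cells (median 0.64), in gates limited by the mitotic genes *Mki67* and *Top2a*. With *Mki67* and *Top2a* at 0 in all gates, *Ccne1* and *E2f2* remained called, while *Uhrf1* (0.45, adjusted p = 0.121) and the mitotic kinase gene *Cdk1* (0.39, adjusted p = 0.0676) did not. *Uhrf1* also lost its call without KO replicate 2 (0.45).

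Cell cycle exit genes were mixed. *Cdkn1a*, which encodes the CDK inhibitor p21, was at 66.0 to 119 CPM, slightly above progenitors (0.36 ± 0.10, adjusted p = 0.0165) and below the 299 to 391 CPM of *Myog*-positive cells (adjusted p = 1.43e-10). *Rb1*, the retinoblastoma protein gene, was at 53.5 to 82.7 CPM against 393 to 487 CPM in *Myog*-positive cells (-2.94 ± 0.10, adjusted p = 1.00e-11). Its difference from progenitors (0.45 ± 0.12, adjusted p = 0.0189) passed the threshold but lost it with DESeq2, with *Myog* or with *Mki67* and *Top2a* at 0, and without WT replicate 1, KO replicate 1 or KO replicate 2 (0.27 to 0.48). For cyclin D1, the difference of 0.51 ± 0.10 from progenitors became 0.34 after each cell was thinned to 5000 UMIs (adjusted p = 0.113). *Ccnd2* was lower than in progenitors, at 17.0 to 32.1 against 36.2 to 51.3 CPM, so the D cyclins moved in opposite directions. In this list, 5 of 23 genes were higher and 6 lower than in progenitors, and 12 were higher and 5 lower than in *Myog*-positive cells.

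Of 24 fusion and adhesion genes tested, 1 was higher and 4 lower than in progenitors (median -0.06), and of 28, 10 were higher and 11 lower than in *Myog*-positive cells (median 0.055). *Mymx* (myomixer) and *Mymk* (myomaker), the membrane proteins that fuse myoblasts, were at 1.78 to 5.73 and 2.32 to 4.46 CPM in *Myod1*-high cells, too low to be tested against progenitors, and at 495 to 624 and 154 to 199 CPM in *Myog*-positive cells. The log2 fold changes against *Myog*-positive cells were -7.44 ± 0.14 and -5.67 ± 0.16. *Jam3*, an adhesion molecule, was slightly higher than in progenitors, at 89.0 to 99.2 against 66.9 to 77.5 CPM (0.45 ± 0.09, adjusted p = 0.00208). With at least 3 *Myod1* UMIs required it was 0.36 with an adjusted p of 0.0959. *Jam3* was far below the 397 to 469 CPM of *Myog*-positive cells.

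Sarcomere genes behaved in more than 1 way. *Actc1*, the cardiac alpha-actin, which developing skeletal muscle also makes, had 231 and 286 CPM in the WT and 411 and 610 CPM in the KO *Myod1*-high cells, against 60.4 to 183 CPM in progenitors and 3885 to 4294 CPM in *Myog*-positive cells. *Ttn* (titin) had 79.0, 142, 97.4 and 133 CPM, against 26.2 to 47.0 and 602 to 891 CPM. Both genes were separated from both gates, with log2 fold changes from progenitors of 2.13 ± 0.10 (adjusted p = 6.62e-12) and 1.73 ± 0.14 (adjusted p = 2.42e-08). *Tnnt1* (slow troponin T), *Tpm2* (beta-tropomyosin) and *Des* (desmin) rose by 0.75 ± 0.08, 0.69 ± 0.09 and 0.65 ± 0.09. The sarcomere list had 14 of 24 genes higher and 1 lower than in progenitors, but this count rested in part on 4 *Myod1*-high cells, all from KO libraries, in which 9.43% to 24.2% of UMIs came from the list. All other members had at most 0.826%. With these 4 cells and 2 like cells among the progenitors left out, 8 genes were higher and 7 lower. *Actc1* (2.15), *Ttn* (1.63), *Tnnt1* (0.72), *Des* (0.61), *Tpm2* (0.55), *Neb* (0.47), *Tpm1* (0.26) and *Cryab* (0.21) then stayed higher. *Acta1*, the skeletal alpha-actin, turned from 0.89 to -0.58, and *Mylpf*, *Myl1*, *Tnnc2* and *Tnni2*, all of fast fibres, turned from higher to lower with it. Against *Myog*-positive cells, 32 of 35 sarcomere genes were lower and 1 higher (median -2.45). *Tnnt2* (-5.61 ± 0.12), *Tnni1* (-5.60 ± 0.29) and *Myh3*, the embryonic myosin heavy chain (-4.35 ± 0.28), were among the lower ones. *Myh8*, the perinatal myosin, was lower as well (-2.63 ± 0.17), and its difference from progenitors did not pass the test (0.15 ± 0.28, adjusted p = 0.803).

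**Figure D3:**
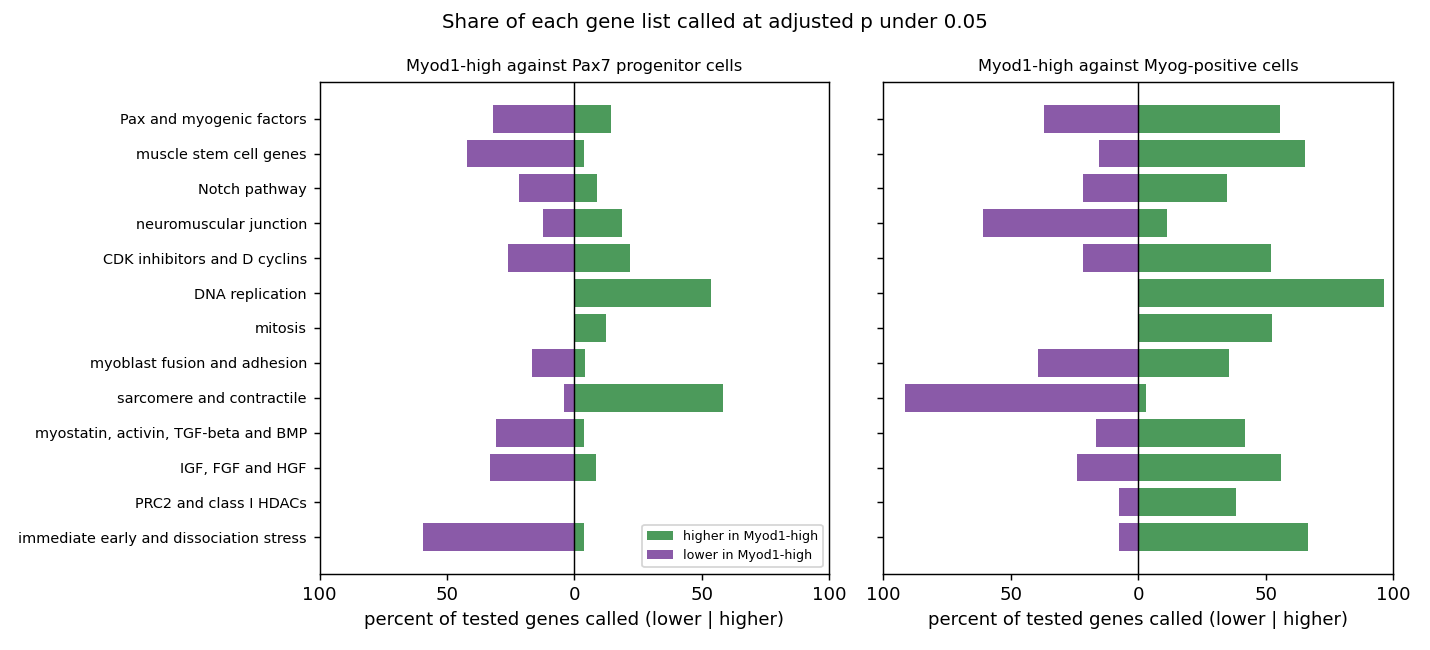
Share of the tested genes in each of 13 lists that were called higher (green, to the right) or lower (purple, to the left) in *Myod1*-high cells, against *Pax7* progenitors (left panel) and *Myog*-positive cells (right panel). DNA replication genes were higher in both panels, while sarcomere genes were mostly higher on the left, where the count depends on 4 cells, and lower on the right.

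*Mstn* (myostatin), a brake on muscle growth, was the 1 gene of the myostatin, activin, TGF-beta and BMP list that was called higher than in progenitors. It had 76.7 and 79.4 CPM in the WT and 64.7 and 92.7 CPM in the KO *Myod1*-high cells, against 35.4 to 53.8 CPM in progenitors, at most 22.1 CPM in *Myog*-positive cells and 35.3 to 55.1 CPM in cycling myogenic cells. The *Myod1*-high range lay above all 3 others, and the tested differences were 0.84 ± 0.11 (adjusted p = 3.27e-05) and 1.83 ± 0.12 (adjusted p = 9.80e-09). A *Mstn* UMI was present in 39.6% of the *Myod1*-high cells. Its receptor genes *Tgfbr1* (104 to 134 CPM) and *Acvr2a* (75.3 to 106 CPM) did not pass the test against progenitors (0.04 ± 0.08, adjusted p = 0.825, and -0.20 ± 0.10, adjusted p = 0.201). *Ltbp1*, which holds latent TGF-beta in the matrix, fell to 42.7 to 79.8 CPM from 147 to 213 CPM (-1.64 ± 0.10, adjusted p = 2.85e-10), and so did the ligand *Bmp4* (adjusted p = 0.000272) and the co-receptor *Tgfbr3* (-1.13 ± 0.10). In this list 1 of 26 genes was higher and 8 lower than in progenitors, and 10 of 24 were higher and 4 lower than in *Myog*-positive cells. The growth factor *Igf1* was at 51.1, 29.4, 74.5 and 36.3 CPM against 93.1 to 115 CPM in progenitors (-1.10 ± 0.13), and its binding protein *Igfbp5* gave -0.75 ± 0.07. *Irs1*, the adaptor behind the insulin and IGF receptors, was higher (0.53 ± 0.09), and *Igf1r* itself was at 438 to 568 against 498 to 596 CPM (-0.09 ± 0.05, adjusted p = 0.252). Of 24 IGF, FGF and HGF genes, 2 were higher and 8 lower than in progenitors, and of 25, 14 were higher and 6 lower than in *Myog*-positive cells.

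No gene of the Polycomb repressive complex 2 and class I histone deacetylase list passed the edgeR test against progenitors (0 of 13), whereas 5 of 13 were higher and 1 lower than in *Myog*-positive cells. *Ezh2*, the Polycomb methyltransferase, was at 168 to 213 CPM against 173 to 203 CPM in progenitors and 92.4 to 99.7 CPM in *Myog*-positive cells (0.93 ± 0.08, adjusted p = 2.11e-07). Immediate early and dissociation stress genes were lower than in progenitors for 16 of 27 genes and higher for 1, the small heat shock gene *Hspb1* (0.74 ± 0.09). The transcription factor genes *Klf4* (-0.79 ± 0.09) and *Fosb* (-0.69 ± 0.07) had the largest falls. These genes can be induced while tissue is digested, and how far handling enters these values was not tested.

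The *Myod1*-high cells were not uniform. The 86 members with 1 or 2 *Myog* UMIs had more *Actc1* than the 409 with 0 in every library, at 476 and 784 against 182 and 228 CPM in the WT and at 986 and 1862 against 252 and 333 CPM in the KO. They included 3 of the 4 contractile-rich cells, all from KO libraries. By *Pax7* the libraries differed in direction. The 195 members with 0 *Pax7* UMIs had 290 and 238 CPM of *Actc1* in the WT against 197 and 301 CPM in the 300 members with *Pax7*, and 638 and 972 against 282 and 295 CPM in the KO. *Actc1* was thus lower without *Pax7* in WT replicate 2 and higher in the other 3 libraries. These are descriptions and were not tested. Markers of other cell types were present to different degrees. Of the members, 391 had 0 UMIs of such markers and 13 had 3 or more. Summed over 10 fibro-adipogenic markers, *Myod1*-high cells had 799 to 1928 CPM against a mean of 20329 CPM over all kept cells, with *Pdgfra* at 0 by the rule. The 5 mast cell markers summed to 486 CPM in WT replicate 1, against 562 CPM over all kept cells of that library, and to 8.92 to 13.6 CPM in the other libraries. The 6 chondrocyte markers summed to 327 CPM in WT replicate 1 and 44.6 to 133 CPM in the others. The 6 smooth muscle and pericyte markers summed to 205 and 218 CPM in the WT and 111 and 120 CPM in the KO. Over all kept cells they summed to 375 and 324 CPM in the WT and 358 and 269 CPM in the KO. Their sum includes *Notch3*, which, as given above, was also present in *Pax7* progenitors.

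The share of *Myod1*-high cells among kept cells was 1.57% (95% Clopper-Pearson interval 1.32 to 1.86) and 1.21% (0.985 to 1.47) in WT replicates 1 and 2. In the KO it was 1.46% (1.23 to 1.71) and 1.14% (0.943 to 1.36). The genotypes overlapped, at 1.39% ± 0.257 and 1.30% ± 0.226 (SD, n = 2 each; exact two-sided permutation test, p = 0.667). Among gated myogenic cells (the 4 gates together) the shares were 11.3% and 9.35% in the WT and 9.40% and 8.13% in the KO, which also overlapped (10.3% ± 1.40 and 8.76% ± 0.892, n = 2 each, exact permutation p = 0.667). With 2 libraries per genotype the smallest p this test allows is 0.333, so no share could pass 0.05. KO cells were shallower, with medians of 8084 and 8982 UMIs per *Myod1*-high cell against 9524 and 10932 in the WT. When cells were thinned to 5000 UMIs before the rule was applied, which left out 902 WT and 1621 KO cells that were too shallow, the KO share of kept cells was the higher one by 0.137 percentage points, so no direction can be given. The intervals cover counting error only.

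Among *Myod1*-high cells thinned to 5000 UMIs (486 cells, with 1 WT and 8 KO cells too shallow), a *Pax7* UMI was present in 45.1% and 45.5% of the WT and 33.8% and 32.2% of the KO cells. Thinning was a single random draw per cell, and the spread between draws was not measured. In this draw the 2 genotypes did not overlap, with a KO minus WT difference of -12.3 percentage points (45.3% ± 0.242 against 33.0% ± 1.15, n = 2 each, exact permutation p = 0.333, the smallest possible). Without thinning the shares were 61.2% and 71.7% against 61.5% and 49.6%, which overlapped, and at 3000 UMIs the difference turned to 0.822 percentage points higher in the KO. In KO replicate 1, 46 of 136 cells had a *Pax7* UMI at 5000 UMIs and 47 of 143 at 3000. In WT replicate 1 it was 60 and 37 of 133 cells. The background, measured in *Pdgfra*-gated cells thinned in the same way, was 0.514%. Before thinning those cells had a median of 11188 UMIs, and the *Myod1*-high cells had 9191. Summed *Pax7* levels were 113 and 140 CPM in the WT and 116 and 99.0 CPM in the KO cells (-0.19 ± 0.16, adjusted p = 0.86), and they overlapped as well.

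Between genotypes, 15 of 8830 genes tested (0.17%) were called in *Myod1*-high cells, 12 higher (0.136%) and 3 lower (0.034%) in the KO. Fits without any 1 library left 1 library in a genotype, so their counts are not given. Most of the higher genes encode parts of the fast sarcomere or its energy supply. *Acta1* had 51.1 and 39.3 CPM in the WT and 302 and 630 CPM in the KO libraries (log2 fold change 3.39 ± 0.29, adjusted p = 2.84e-05). *Mylpf*, the fast regulatory light chain, gave 3.20 ± 0.32, and *Myl1*, *Tnnc2*, *Tnnt3* and *Ckm* (muscle creatine kinase) gave 2.95 to 3.42. Almost all of this signal sat in few cells. The 2 highest cells held 83.7% and 93.2% of the *Acta1* UMIs in KO replicates 1 and 2, against 12.1% and 22.7% in the WT, and cells with an *Acta1* UMI made up 31.5% and 26.1% of the KO and 31.3% and 29.3% of the WT members. Without the 4 contractile-rich cells described above edgeR called 0 of 8802 genes (571 at an unadjusted p below 0.05), and the fold change of *Acta1* was 0.06 and that of *Mylpf* 0.14 on the log2 scale. With the 4 cells in place, DESeq2 called 3 genes (107 at an unadjusted p below 0.05). Of 23 sarcomere genes tested, 8 were called higher with the 4 cells and 0 without, and in the other 12 lists edgeR called 0 genes. The median over the 28 DNA replication genes, of which 0 were called, was 0.38, against 0.00 over all genes, and their summed level was 2099 and 2271 CPM in the WT and 2640 and 2923 CPM in the KO. Whether those 4 cells are committing myogenic cells or carry RNA of muscle fibres was not tested.

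*Actc1* was spread more evenly. Its levels were those given above, with both KO libraries above both WT libraries (1.02 ± 0.17, adjusted p = 0.0178), and 58.7% and 79.0% of KO members had a UMI against 46.3% and 54.5% in the WT. Without the contractile-rich cells the difference was 0.64 (adjusted p = 0.367), and among members with 0 *Myog* UMIs it was 0.55 (adjusted p = 0.84). Among the genes lower in the KO, *Colec12*, a scavenger receptor gene, had 62.0 and 84.8 CPM in the WT and 27.0 and 30.9 CPM in the KO libraries (-1.30 ± 0.23, adjusted p = 0.0284). A *Colec12* UMI was present in 36.6% and 45.5% of WT and in 15.4% and 21.0% of KO members, so its difference was spread over many cells. It was -1.28 without the contractile-rich cells, where the adjusted p was 0.131. The other lower genes rested on single cells. *Fcer1g*, an immune receptor subunit, had 43 UMIs in WT replicate 1, of which 35 were in 1 cell, and 18 in WT replicate 2, of which 17 were in 1 cell. *Rgs5*, a pericyte gene, had 34 and 30 UMIs in the WT, of which 28 and 26 were in 1 cell each. Summed over 6 smooth muscle and pericyte markers, a list that holds *Rgs5* and *Notch3*, the members had 205 and 218 CPM in the WT and 111 and 120 CPM in the KO.

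**Figure D4:**
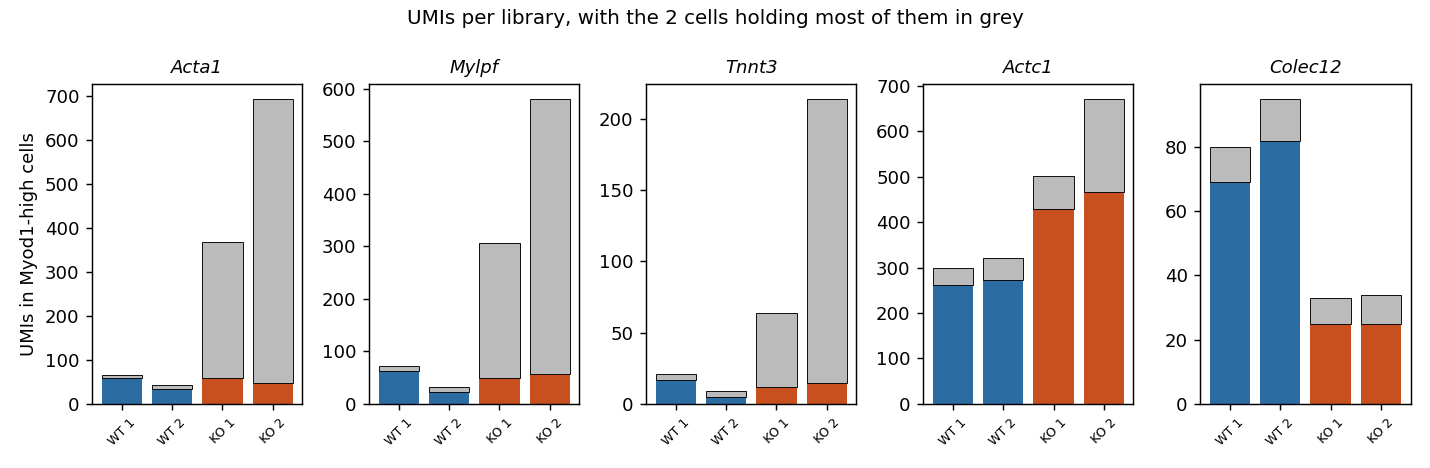
UMIs of 5 genes summed over the *Myod1*-high cells of each library (blue, WT; orange, KO), with the part held by the 2 highest cells in grey. In the KO libraries the grey part makes up most of the bars of *Acta1*, *Mylpf* and *Tnnt3*, and the smaller part of those of *Actc1* and *Colec12*.

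*Sox8*, *Dok7*, *Ccnd1* and *Gm28653* did not pass the test between genotypes, whereas *Actc1* did so with the contractile-rich cells included. The log2 fold changes of KO against WT were -0.05 ± 0.29 for *Sox8* (adjusted p = 0.987), 0.74 ± 0.44 for *Dok7* (adjusted p = 0.795), 0.35 ± 0.19 for *Ccnd1* (adjusted p = 0.771) and 0.24 ± 0.16 for *Gm28653* (adjusted p = 0.817). For *Mstn* it was 0.04 ± 0.20 (adjusted p = 0.987), with overlapping groups, and *Tgfbr1* (-0.18 ± 0.15), *Acvr2a* (-0.30 ± 0.18), *Notch2* (-0.42 ± 0.18), *Igf1r* (-0.19 ± 0.13) and *Ptn* (-0.06 ± 0.23) did not pass either. *Notch3* was lower in both KO libraries than in both WT libraries, at the levels given above, with -0.76 ± 0.19 and an adjusted p of 0.269, in a comparison where 21.4% of all genes were lower in both KO libraries than in each WT library and 15.1% higher. *Myh3* and *Myh8* were at 0 to 12.7 and 5.35 to 14.5 CPM, with the highest value of each in KO replicate 2. *Myog*, which the rule limits, was at 22.5 and 9.82 CPM in the WT and 32.7 and 26.3 CPM in the KO members. The KO effect itself was also compared between gates. It differed between *Myod1*-high cells and progenitors for 18 of 11147 genes (0.161%), being more positive in *Myod1*-high cells for 5 (0.0449%) and more negative for 13 (0.117%). Between *Myod1*-high and *Myog*-positive cells it differed for 18 of 11090 genes (0.162%), more positive for 15 (0.135%) and more negative for 3 (0.0271%).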

How the data were processed

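Single cells of leg muscle from 2 WT and 2 *SYISL* KO libraries were analysed. The authors aligned reads to mm10 with Cell Ranger 7.2.0 and deposited raw counts of UMIs per gene and cell, not normalised. Whether intronic reads were counted is not given in the sources used here. The filter on cells, part of the rule, was 1000 to 6000 genes, 1000 to 25000 UMIs and a mitochondrial share below 8%, with no doublet removal. The members and gene lists were chosen with earlier results of these data known.

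UMIs were summed per library and gate and tested with edgeR 4.0.16 (quasi-likelihood, TMM factors, filterByExpr, R 4.3.3), Benjamini-Hochberg adjusted over all genes tested, threshold 0.05, with SE from the F statistic. Genes the rule used were not tested between gates. Shares were compared by exact permutation over 6 arrangements of the libraries. Named genes were picked from the supplied markers, genes the study discusses, up to 5 called members per list and up to 10 called genes per direction. Between genotypes the same limit of 10 held, and not every called gene is named in the text. *Chrng*, *Neb*, *Tpm1*, *Cryab* and *Gas6* were named after their values were seen. Scripts were tested on simulated data. Alternatives were DESeq2 1.42.0, RLE factors, other gene and cell filters, stricter rules, thinning, Scrublet (scanpy 1.11.5), a replicate block and fits without each library in turn. After the data were seen, leaving out cells with 5% or more contractile UMIs was added, as was leaving out these together with Scrublet doublets and cells with 3 or more UMIs of other cell types' markers. Promoter and microRNA sequences were from RefSeq (GRCm38.p6).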

Additional observations from a re-analysis of the deposited data

Results flagged for a closer look

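Whether the KO effect differed between *Myod1*-high cells and each neighbouring gate was tested as the interaction of genotype and gate, blocked by library, and up to 10 called genes per direction are listed here because the genotype effect differed between the gates. No group had 4 or more samples, so no single library was tested for standing apart. Against *Pax7* progenitors, 18 of 11147 genes (0.161%) were called, and against *Myog*-positive cells, 18 of 11090 (0.162%).

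With *Pax7* progenitors as the reference, the differences in KO effect (log2) were positive for the sarcomere genes *Acta1* (1.89), *Tnnc2* (1.92), *Tnnt3* (1.89), *Myl1* (1.76) and *Mylpf* (1.72). They were negative for the mast cell protease and granule genes *Mcpt4* (-9.13), *Cma1* (-8.66), *Cpa3* (-7.95) and *Tpsb2* (-7.94), for *Srgn* (-7.27) and *Serpinb1a* (-6.13), and for the immune genes *C1qb* (-7.26), *Mrc1* (-7.15), *Fcer1g* (-6.92) and *Tyrobp* (-6.60). The 5 mast cell markers summed to 486 CPM in the *Myod1*-high cells of WT replicate 1 and 8.92 to 13.6 CPM in the other 3 libraries, and to 221 CPM in the progenitors of KO replicate 2 and 8.83 and 9.22 CPM in those of the WT. Fits without 1 library left 1 library in a genotype, so their calls are not given. Without contractile-rich cells 12 genes were called, and without these, Scrublet doublets and cells with other types' markers 1 was.

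With *Myog*-positive cells as the reference, the differences were positive for *Tnni1* (7.47), *Cox6a2* (7.32), *Csrp3* (4.003), *Acta1* (3.20), *Myl1* (3.08), *Tnnc2* (3.00), *Mylpf* (2.93), *Tnnt3* (2.82), *Ckm* (2.80) and *Actc1* (0.95), and negative for *Ucma* (-4.30), *Fabp4* (-2.72) and *Cav1* (-1.47). *Tnni1* and *Cox6a2* were at 0 in both WT libraries of *Myod1*-high cells, and fitted values of genes near 0 depend on the prior count and are no bounds. *Ucma*, a cartilage gene, had 118 CPM in WT replicate 1 and 0 to 12.7 CPM in the other *Myod1*-high libraries. Leaving out the contractile-rich cells left 0 calls in edgeR (593 at an unadjusted p below 0.05, with DESeq2 not run in that setting). As above, calls from fits without 1 library are not given.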

How the results depend on the processing

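All 37 genes whose fold against *Myog*-positive cells was followed kept their direction and call in every alternative run. The followed genes were a selection of those named, without, for example, *Pitx3* against *Myog*-positive cells or *Cdkn1a* against progenitors. Against *Pax7* progenitors, 7 of 44 genes lost their call in at least 1 alternative (*Acta1*, *Ccnd1*, *Cdk1*, *Dll1*, *Jam3*, *Rb1* and *Uhrf1*). Runs that did not test a gene were not counted for it, so *Dok7* had 16 settings where *Sox8* had 18. The count of 15 KO calls became 3 with DESeq2, 73 with no gene filter beyond 1 UMI, and 0 with at least 3 *Myod1* UMIs (290 at an unadjusted p below 0.05), with *Myog* at 0 (457), with *Mki67* and *Top2a* at 0 (409), without contractile-rich cells (571), or without the 3 kinds of doubtful cells (534). Leaving out 1 library gave 29, 61, 104 and 34 calls without WT replicate 1, WT replicate 2, KO replicate 1 and KO replicate 2, which kept 12, 15, 15 and 12 of the 15 genes. Against progenitors the count of 1263 became 464 with DESeq2, which tested 7199 genes against 10437 in edgeR. It became 737 with *Mki67* and *Top2a* at 0 and 592 with no library block. With 1 library left out it was 651 to 1191, lowest without KO replicate 1 (651) and KO replicate 2 (654). Against *Myog*-positive cells, 4714 became 3046 with DESeq2. The 18 differences in KO effect from progenitors became 3 with DESeq2, 1 without the doubtful cells and 15 to 56 with 1 library out, and the 18 from *Myog*-positive cells became 5 with DESeq2, 11 without Scrublet doublets, 0 without contractile-rich cells, 0 without the doubtful cells and 6 to 39 with 1 library out.

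Whether replicate numbers pair the libraries is not given by the labels. Deviations from the genotype means were nearly uncorrelated between WT replicate 1 and KO replicate 1 (0.0210 over 8830 genes). The value for WT replicate 1 with KO replicate 2, -0.0210, is its negative by construction. The replicate block called 62 genes. These included *Notch3* (-0.76) and *Gas6* (-1.11, named after its values were seen), which were not called without the block. With so few libraries the block left little information on the spread between them, so these calls carry little weight.

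After thinning to 5000 and 3000 UMIs, the KO minus WT difference in the Myod1-high cell share of kept cells reversed to 0.137 and 0.238 percentage points, and that in the Myod1-high cell share of gated myogenic cells to 0.130 and 1.89. With 1 library out they ran from -0.277 to 0.0865, with the sign reversed without WT replicate 1 or KO replicate 2 (0.0646), and from -2.56 to -0.584. The *Pax7* share reversed to 0.822 at 3000 UMIs. Folds in the KO that reversed were *Mstn* (-0.28) and *Gm28653* (-0.44) with 3 *Myod1* UMIs, *Gm28653* (-0.33) with *Myog* at 0, *Myl1* (-0.33 and -0.38) and *Tnnt3* (-0.040 and -0.074) without contractile-rich or doubtful cells, and, with 1 library out, *Sox8* (-0.26 to 0.16), *Mstn* (-0.25 to 0.31) and *Myf5* (-0.40 to 0.029). Against progenitors, *Notch2* reversed without KO replicate 1 (0.011, range -0.17 to 0.011) and *Acta1* with *Myog* at 0 (-0.24) and without contractile-rich (-0.58) or doubtful cells (-0.55). Apart from those that left out cells or libraries by construction, the cause was not tested.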
